A study of Rattus norvegicus with 2 samples.

Results

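The pentose phosphate pathway enzymes were read in A7r5, an established cell line derived from the smooth muscle of embryonic rat aorta, after infection with an adenovirus. These enzymes were chosen by name as the probe sets whose single annotated rat gene is one of H6pd, Pgls, Pgd, Rpia, Rpe, Taldo1, Tkt, Prps1 and Prps2. This gave 9 genes of 10411 named on the array, read by 14 probe sets. The GLUT1 pool carried an adenovirus with the cDNA of human GLUT1, the glucose transporter of the plasma membrane, and the control pool carried the empty virus. Both were infected for 72 hours at a multiplicity of infection of 10 and kept in 5.5 mM glucose, and each joined the RNA of 3 days on 1 array. Which promoter drives GLUT1 in the vector is not stated in the labels. With 1 pooled array per group there is no replicate error, and no test or p-value is given for any difference below.

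The pathway branches off glycolysis at glucose 6-phosphate. Its oxidative branch makes NADPH, which feeds glutathione reduction and lipid synthesis, and releases ribulose 5-phosphate. Its non-oxidative branch exchanges carbon units between sugar phosphates reversibly and links ribose 5-phosphate to glycolysis. PRPP synthetases then turn ribose 5-phosphate into phosphoribosyl pyrophosphate (PRPP), the precursor of purines, pyrimidines and NAD. The comparison asks whether the genes of these steps differed between cells with added GLUT1 and cells with the empty virus.

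No enzyme of the pathway reached a 2-fold difference between the pools (0 of 9, beside 0.0164% of the 6114 measured genes past 2-fold in either direction), and none reached 1.5-fold (0 of 9, beside 0.131%). At 1.2-fold, Taldo1 was higher and Rpe was lower in the GLUT1 pool, so 2 of 9 members lay past this ratio beside 6.41% of measured genes. By direction this was 1 of 9 higher, beside 3.7% of measured genes, and 1 of 9 lower, beside 2.72%. Both genes belong to the non-oxidative branch, and their differences had opposite signs. At 1.1-fold Rpia joined them on the lower side, giving 3 of 9 beside 27.3% of measured genes, which is near the background. Rpia did so by its brightest probe set alone, and the mean of its 2 probe sets, -0.09 in log2 ratio, did not reach 1.1-fold. No test stands behind these counts.

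The promoter windows of the 3 members past 1.1-fold are shown because, by the brightest probe set, their values differed most between the arrays. RefSeq (build GRCr8) holds a window from 250 bases before to 50 bases from the start site for 8 of the 9 members, with Pgls the exception. Capitals mark a GC box (GGGCGG) or a CCAAT box (CCAAT) found on either strand, and each window reads 5′ to 3′ along its gene. The Taldo1 window lies at chr1:205922946-205923245 on the plus strand, that of Rpe at chr9:75640791-75641090 on the plus strand, and that of Rpia at chr4:104307669-104307968 on the minus strand.
Taldo1: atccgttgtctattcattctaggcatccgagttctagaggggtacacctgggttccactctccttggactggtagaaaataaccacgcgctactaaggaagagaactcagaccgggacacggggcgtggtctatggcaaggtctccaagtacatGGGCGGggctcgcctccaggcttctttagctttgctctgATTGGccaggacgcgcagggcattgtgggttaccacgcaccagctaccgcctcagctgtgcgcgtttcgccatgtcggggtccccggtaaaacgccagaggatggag
Rpe: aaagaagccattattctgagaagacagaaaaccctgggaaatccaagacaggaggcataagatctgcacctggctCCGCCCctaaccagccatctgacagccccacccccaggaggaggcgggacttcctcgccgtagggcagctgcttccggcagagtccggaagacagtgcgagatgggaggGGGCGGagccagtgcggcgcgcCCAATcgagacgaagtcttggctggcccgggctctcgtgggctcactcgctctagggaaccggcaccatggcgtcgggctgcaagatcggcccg
Rpia: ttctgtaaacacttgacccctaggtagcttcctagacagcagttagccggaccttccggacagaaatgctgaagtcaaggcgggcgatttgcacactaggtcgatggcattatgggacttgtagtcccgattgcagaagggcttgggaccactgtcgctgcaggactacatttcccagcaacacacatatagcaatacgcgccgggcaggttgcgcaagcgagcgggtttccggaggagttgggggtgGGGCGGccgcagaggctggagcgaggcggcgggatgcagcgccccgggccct

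The windows of Taldo1 and Rpe, whose log2 ratios had opposite signs, both held a GC box and a CCAAT box, and that of Rpia held a GC box that spans the start site. In Taldo1 the GC box began 96 bases and the CCAAT box, on the opposite strand, 57 bases before the start site. In Rpe a GC box began 66 bases and a CCAAT box 44 bases before it, with a second GC box on the opposite strand 175 bases before it. Among the 8 windows a GC box was found in 5 and a CCAAT box in 5, against 33.1% and 37.5% of all 33469 rat windows. The 8 windows held 53.7% to 68.3% G and C bases, all above the median of 51.7% over all windows, and the part of this in the counts was not tested. The antioxidant response element core (TGACNNNGC), the motif of the NRF2 factor, was in 0 of the 8 and in 12.1% of all windows. The E-box (CACGTG) was in 0 of the 8 and in 6.42% of all windows. A match is a description of the letters in these windows and no match says nothing of the factor, and the 4 motifs were searched on both strands and do not overlap in the windows shown.

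Among the oxidative enzymes, Pgd was the farthest from 0. Pgd encodes 6-phosphogluconate dehydrogenase, which yields NADPH and ribulose 5-phosphate, and its probe set 1371646_at read 8988 in the GLUT1 pool and 8248 in the control pool. The log2 ratio of GLUT1 over control was 0.13, or 1.09-fold. The local spread, a scaled median absolute deviation of log2 ratios over the 501 measured probe sets closest in brightness, was 0.082, so Pgd lay 1.53 local spreads above 0. It did not reach 1.1-fold.

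H6pd encodes the endoplasmic reticulum enzyme that joins the dehydrogenase and lactonase steps, and supplies NADPH in that compartment. Its probe set read 704 in the GLUT1 pool and 667 in the control pool, a log2 ratio of 0.08 and 0.451 local spreads. Pgls, the cytosolic 6-phosphogluconolactonase, read 1497 in the GLUT1 pool and 1516 in the control pool, a log2 ratio of -0.02 and 0.136 local spreads from 0. Each oxidative enzyme thus rests on 1 probe set, and H6pd and Pgls differed by less than their local spread.

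In the non-oxidative branch the highest ratio was that of Taldo1, the gene of transaldolase, which moves a dihydroxyacetone unit between sugar phosphates. Its probe set 1369940_at read 7476 in the GLUT1 pool and 6182 in the control pool, a difference of 1294 intensity units, 1.21-fold and a log2 ratio of 0.28. At this brightness the local spread was 0.082, and the ratio was 3.37 times it, the farthest of the 12 member probe sets above the brightness filter. Of all measured genes, 3.27% had a higher log2 ratio and 5.79% lay at least as far from 0. Taldo1 was read by 1 probe set, so no second reading stands beside it.

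Rpe, the epimerase that turns ribulose 5-phosphate into xylulose 5-phosphate, had the lowest ratio. Its probe set 1389202_at read 1010 in the GLUT1 pool and 1222 in the control pool, 0.827-fold and a log2 ratio of -0.27. It is also a gene with 1 probe set, and it lay 1.89 local spreads from 0, since the spread at its brightness was 0.14. Taldo1 and Rpe are therefore almost equally far from 0 in log2 ratio, but the brighter Taldo1 is farther in units of the local spread.

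Rpia encodes the isomerase between ribulose 5-phosphate and ribose 5-phosphate, and its 2 probe sets differed in sign. The brighter, 1376559_at, read 1328 in the GLUT1 pool and 1565 in the control pool, a log2 ratio of -0.24 and 1.85 local spreads below 0. The other, 1389468_at, read 1308 in the GLUT1 pool and 1260 in the control pool, a log2 ratio of 0.06. The lower value of Rpia thus rests on 1 of its 2 readings, and their mean log2 ratio was -0.09. The readings lay 0.291 apart in log2 ratio, and 11.7% of the 702 genes with at least 2 measured probe sets had a wider gap between their 2 brightest.

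Tkt encodes transketolase, the thiamine-dependent enzyme that shares substrates with transaldolase. Its bright probe set 1386859_at read 8060 in the GLUT1 pool and 7957 in the control pool, a log2 ratio of 0.02 and 0.25 local spreads. A second, dim probe set, 1367611_at, lay below the brightness filter at 254 in the GLUT1 pool and 278 in the control pool, a log2 ratio of -0.13. Of all measured genes, 86.8% lay at least as far from 0 as the bright probe set of Tkt.

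**Figure D1:**
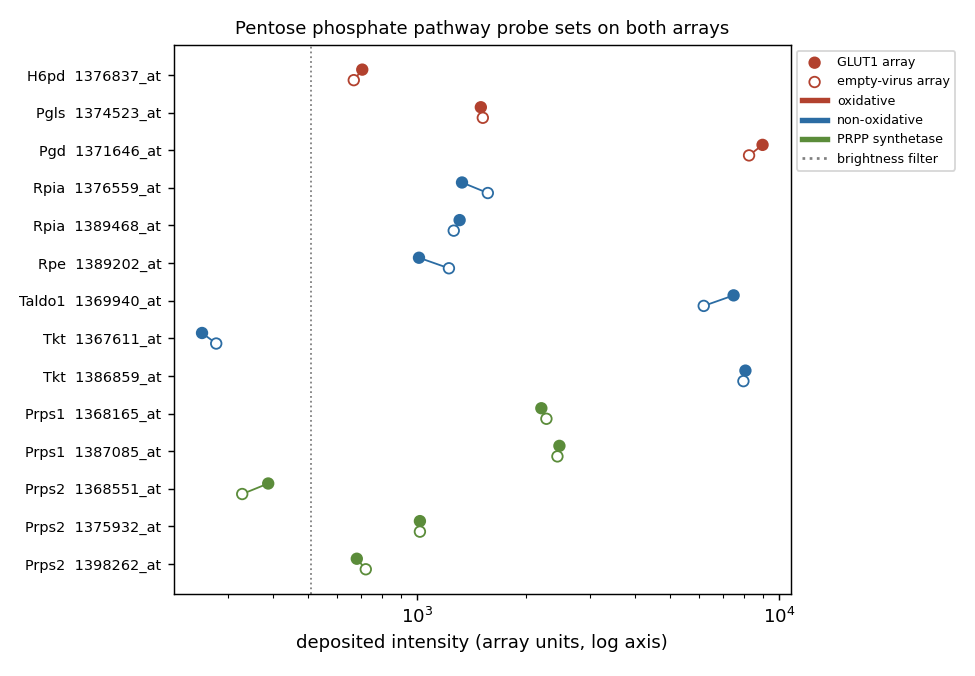
Deposited intensity (array units, log axis) of all 14 probe sets, with filled points for the GLUT1 array, open points for the empty-virus array, colours for the branches and a dotted line at the brightness filter. The GLUT1 point lies visibly to the right for Taldo1 (7476 against 6182) and to the left for Rpe (1010 against 1222), while 2 probe sets, of Tkt and Prps2, lie below the filter.

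By the brightest probe set of each gene, the PRPP synthetases had the smallest median distance from 0 among the pathway groups. Prps1 had measured probe sets reading 2468 and 2200 in the GLUT1 pool, against 2437 and 2272 in the control pool. Their log2 ratios were 0.02 and -0.05, 0.192 and 0.421 local spreads in size. The readings of Prps1 differed in sign and lay closer together than those of 71.4% of the genes with paired readings.

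Prps2, the second isoform, was read by 3 probe sets. The brightest, 1375932_at, read 1016 in both pools, and its log2 ratio of 0.0014 is the scaling between the arrays alone. The next, 1398262_at, read 680 in the GLUT1 pool and 720 in the control pool, a log2 ratio of -0.08. The dim 1368551_at read 387 in the GLUT1 pool and 328 in the control pool, a log2 ratio of 0.24 below the brightness filter. Prps1 and Prps2 are close paralogs, and whether their probes also bind the other transcript was not tested.

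**Figure D2:**
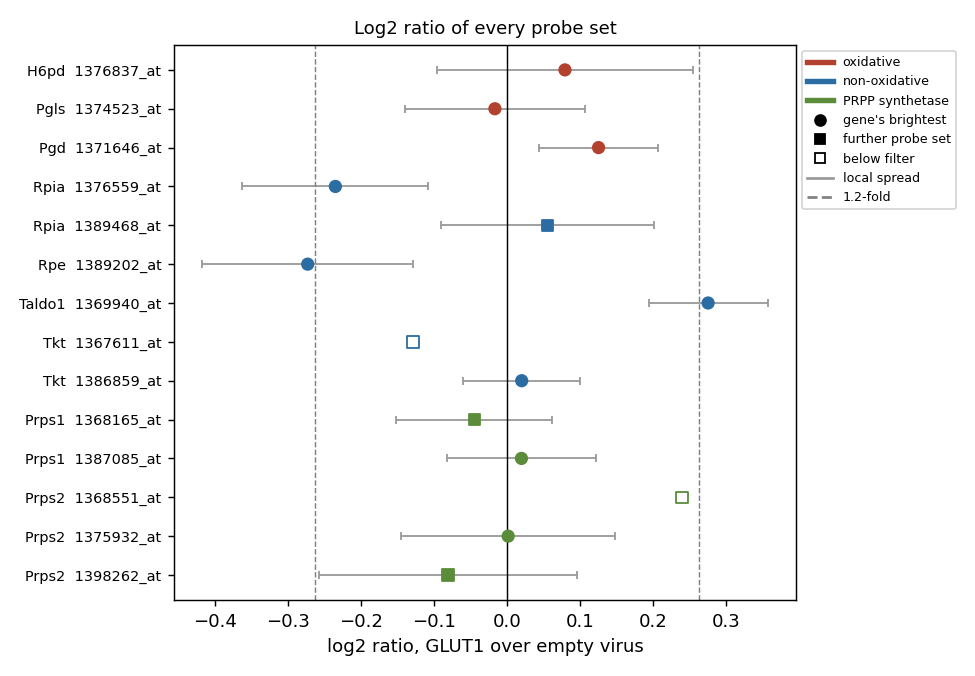
Log2 ratio of GLUT1 over empty virus for each of the 14 probe sets, with circles for a gene's brightest probe set, squares for its others, open squares below the brightness filter, and bars of 1 local spread either side. Only the circles of Taldo1 at 0.28 and Rpe at -0.27 lie outside the dashed 1.2-fold lines, and the probe sets of Rpia lie on either side of 0.

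Set side by side, the branches differed in how far their members were spread. The oxidative branch had log2 ratios from -0.02 to 0.13 with a median of 0.08 over 3 members. The non-oxidative branch ran from -0.27 to 0.28 with a median of -0.11 over 4 members, 2 above and 2 below 0. Its median is the midpoint of Rpia and Tkt, and over its 5 measured probe sets the median was 0.02. The difference of the branch medians, oxidative minus non-oxidative, was 0.19 in log2 ratio, it rests on 3 and 4 genes, and it was not tested. When the brightness filter was raised to the 75th percentile, which leaves out H6pd, Rpia and Rpe, the order turned, with medians of 0.05 in the oxidative and 0.15 in the non-oxidative branch.

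The PRPP synthetases had a median of 0.01. Over all 9 members the median log2 ratio was 0.02, with 6 above and 3 below 0, beside a median of 0.0064 over all measured genes, of which 52.2% lay above 0. The median distance from 0 was 0.079 for the members and 0.082 for all measured genes. By both measures the members lay close to the rest of the array.

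In intensity, the brightest probe sets of the oxidative members ran from 704 to 8988 in the GLUT1 pool and from 667 to 8248 in the control pool. Those of the non-oxidative members ran from 1010 to 8060 in the GLUT1 pool and from 1222 to 7957 in the control pool. Probe sets bind their targets unequally, so these ranges do not rank the branches or the genes by mRNA level. All 9 genes had at least 1 probe set above the brightness filter on the mean of both arrays, beside 6114 of all 10411 genes. Of the 14 probe sets 12 passed it, beside 7962 of the 15923 on the array.

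**Figure D3:**
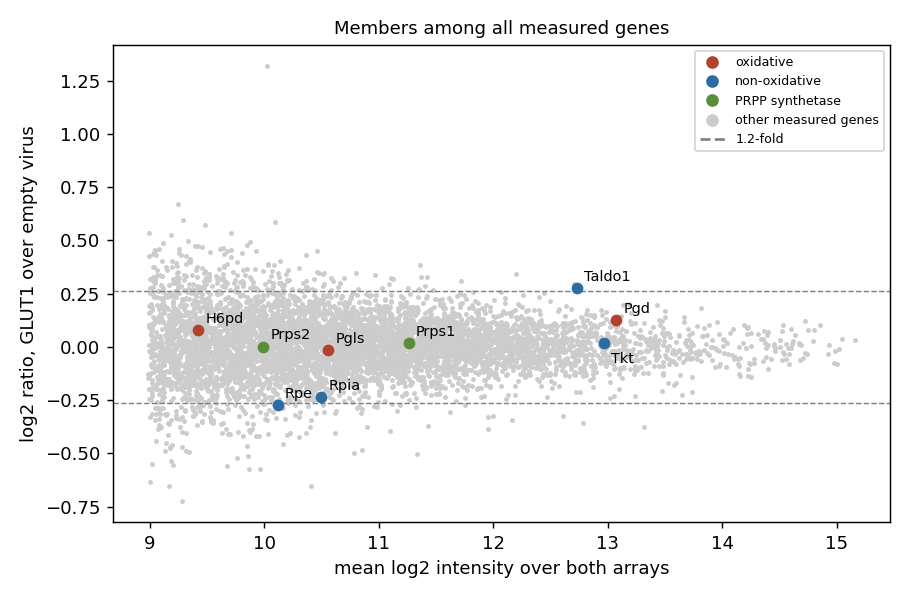
Log2 ratio of GLUT1 over empty virus against mean log2 intensity for the 6114 measured genes (grey), with the 9 members coloured by branch and dashed lines at 1.2-fold. Taldo1 lies at the upper edge of the grey genes of like brightness, and Rpe and Rpia lie low in a wider part of the cloud.

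Genes linked to the pathway were placed on 5 lists, assembled with earlier results of these data known, whose medians in log2 ratio ran from -0.02 to 0.13 beside 0.0064 over all measured genes. Of all measured genes, 52.2% lay above 0 and 6.41% lay past 1.2-fold in either direction. Of 15 other genes of pentose and sugar phosphates, 6 were measured, with 3 above and 3 below 0. Their median log2 ratio was 0.03, with 0 past 1.2-fold. Farthest from 0 was Pgm2, a phosphopentomutase, which read 987 in the GLUT1 pool and 1164 in the control pool, a log2 ratio of -0.24. Dera, the aldolase that splits deoxyribose 5-phosphate, read 2174 in the GLUT1 pool and 1934 in the control pool, a log2 ratio of 0.17.

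Other enzymes that can make NADPH, some of which work mainly with NAD, gave a median of -0.02 in log2 ratio. Of 11 listed, 7 were measured, with 3 above and 4 below 0 and 0 past 1.2-fold. Mthfd2, a mitochondrial enzyme of folate metabolism, read 3676 in the GLUT1 pool and 3361 in the control pool, a log2 ratio of 0.13. Glud1, glutamate dehydrogenase, read 4725 in the GLUT1 pool and 5109 in the control pool, a log2 ratio of -0.11. Both differences are close in size to that of Pgd, at 0.13.

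Enzymes that use NADPH gave a median of 0.08 in log2 ratio, with 9 measured of 13 listed, with 7 above and 2 below 0. Txnrd1 and Fasn, counted above 0, each had a second measured probe set below it, at -0.10 and -0.09. Of the 9 measured, 1 was past 1.2-fold, beside 6.41% of all measured genes in either direction. This was Gsr, the glutathione reductase, at 665 in the GLUT1 pool and 540 in the control pool. Its log2 ratio of 0.30 was 1.73 local spreads. The list also holds Cyb5r3, which uses mainly NADH, at a log2 ratio of 0.02. Por, the reductase that passes electrons to cytochrome P450 enzymes, read 868 in the GLUT1 pool and 763 in the control pool, a log2 ratio of 0.19. Its second measured probe set gave 0.10.

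Genes of nucleotide and NAD synthesis and salvage, pathways that use PRPP in at least some of their steps, gave a median of -0.01 in log2 ratio, with 14 measured of 22 listed, with 6 above and 8 below 0 and 0 past 1.2-fold. Ppat, the amidotransferase that commits PRPP to purines, read 1485 in the GLUT1 pool and 1652 in the control pool, a log2 ratio of -0.15. Ctps2, a CTP synthase, read 1533 in the GLUT1 pool and 1399 in the control pool, a log2 ratio of 0.13. Cad, counted above 0 at 0.11 by its brightest probe set, had a second measured probe set at -0.30, beyond 1.2-fold.

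Regulators linked to the pathway gave a median of 0.13 in log2 ratio, with 7 measured of 9 listed, with 6 above and 1 below 0 and 0 past 1.2-fold. Mafg, a small Maf partner of NRF2, read 1886 in the GLUT1 pool and 1681 in the control pool, a log2 ratio of 0.17, but its second measured probe set gave -0.12. Myc read 991 in the GLUT1 pool and 884 in the control pool, a log2 ratio of 0.17. Srebf1, counted above 0 at 0.03, had a second measured probe set at -0.05. Nfe2l2, the gene of NRF2 itself, read 3650 in the GLUT1 pool and 3615 in the control pool, a log2 ratio of 0.02, and was named after its value was seen.

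**Figure D4:**
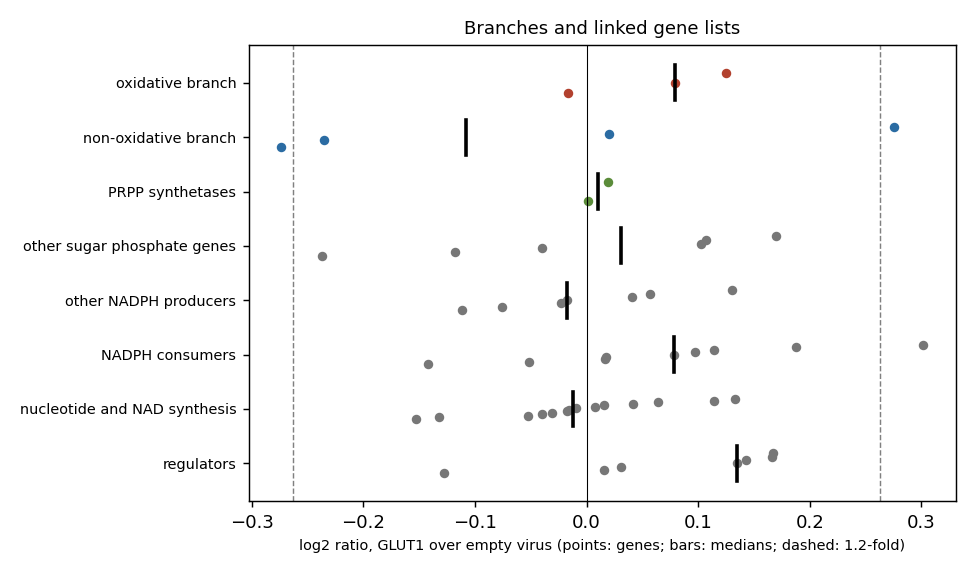
Log2 ratio of GLUT1 over empty virus (horizontal axis) for the measured genes of the 3 pathway groups and 5 linked lists, with 1 point per gene, black bars at list medians and dashed lines at 1.2-fold. The non-oxidative branch spans the dashed lines at both ends, and Gsr at 0.30 is the other gene beyond them.

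The arrays were alike in distribution, with a median intensity of 508 on both, so they cannot show whether the pools differed in total mRNA. The SD of the log2 ratio was 0.14 across measured genes. Markers of the labelled cell type were read: 7 of 9 smooth muscle genes were measured, beside 6114 of all 10411 genes. Myh11 and Mylk lay below the filter. The summed intensity of the 9 smooth muscle markers was 50300 in the GLUT1 pool and 49948 in the control pool. Of markers of other cell types on the array, 0 of 3 endothelial, 0 of 3 epithelial, 1 of 4 leukocyte and 1 of 4 skeletal muscle genes were measured. The leukocyte gene was Cd14, at 1398 in the GLUT1 pool and 1235 in the control pool. The skeletal muscle gene was Acta1, at 2240 in the GLUT1 pool and 2339 in the control pool. Des, the dimmest measured smooth muscle marker, read 729 in the GLUT1 pool and 743 in the control pool. Fewer cells of a type and less RNA per cell cannot be told apart in such pools.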

How the data were processed

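Intensities per probe set were deposited by the authors as whole numbers on a linear scale for 15923 probe sets and 2 arrays, 1 per group. Per the labels' protocols, RNA of 3 days was pooled per array and biotin-labelled cRNA was made from 5 µg of total RNA. The software, the background correction and the authors' scaling between arrays were not given in the sources used here. No detection calls were used. Gene names came from the annotation of the platform, updated through the gene ID to the rat table of assembly GRCr8; 12783 had 1 gene, 312 several and 2771 none, and 12748 of the 12783 IDs were found in that table.

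The GLUT1 array was scaled by 0.0014 log2 units so that the median log2 ratio of brighter probe sets was 0. Intensities under the 25th percentile over both arrays together, 175, were raised to it before taking log2. A gene was represented by its brightest probe set and counted as measured at a mean log2 value of at least 8.99, the median of all probe sets. Genes past folds of 2, 1.5, 1.2 and 1.1 were counted, with 1.2 as the main one for the members. With 1 array per group no test was run, and the number of arrays limits the precision. Every member is named with all its probe sets, and of each linked list the 2 measured genes farthest from 0. Outside this rule, Cyb5r3 is named for its cofactor and Nfe2l2 as the gene of NRF2. Txnrd1, Fasn, Cad and Srebf1 are named for probe sets that differ in sign. The members, lists and folds were chosen with earlier results of these data known. Alternatives were no scaling, quantile normalization, other floors and filters, averaged probe sets, and folds of 1.1 and 1.5 in place of 1.2. The scaling and the log2 ratios were tested on simulated data, with planted differences larger than those of the members. The choice of probe set per gene, the local spread, the counts, the branch medians and the motif search were not tested in this way. Python 3.11.15, numpy 2.4.6, pandas 2.3.3 and matplotlib 3.10.9 were used.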

Additional observations from a re-analysis of the deposited data

How the results depend on the processing

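No paired analysis was possible because there was only 1 array a group. With a filter at the 75th percentile, 5 of the 9 members remained measured, 1 was past 1.2-fold, and the non-oxidative median log2 ratio turned to 0.1478, against -0.1078 in the main setting; that filter leaves out Rpia, Rpe, H6pd and Prps2 for their brightness. At 1.5-fold, 0 members were past the ratio. Averaging all probe sets brought Rpia to -0.0901 and the median of all members to -0.0127. The other counts stayed within 1.5 times their main value, and the other medians and member ratios moved by less than a local spread. Taldo1 ranged from 0.267 to 0.276 and Rpe from -0.28 to -0.274 over the settings that kept them. Each has 1 probe set and the deposited values had the same median on both arrays, so this says little about stability. Floor and filter cannot alter the ratio of a bright probe set.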

Other observations

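A further 3 probe sets list Pgd together with Cenps, Kif1b and Cort and entered no gene value. They read 1080, 733 and 464 in the GLUT1 pool, against 1042, 741 and 427 in the control pool. Their log2 ratios were 0.05, -0.01 and 0.12, beside 0.13 for the probe set of Pgd alone.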
